A study of Lathyrus oleraceus with 4 samples.

Results

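Heat was compared with control in unopened flower buds of the pea cultivar Matar Ageta, which the submitters describe as susceptible to heat. The comparison uses 2 of the 4 samples of the study, and the other 2 are the same treatments in Arka Chaitra, the cultivar described as tolerant. Matar Ageta plants at the stage of small green buds, before the flowers open, were moved to 35 °C for 2 h in a lit growth chamber and harvested at once. Control plants of the same cultivar were kept in a chamber at day and night temperatures of 22 °C and 16 °C. All plants had been raised at those lower temperatures in a greenhouse, and the labels name no other treatment. No label names a batch, but the titles mark both control samples rep1 and both heat samples rep2. The replicate number therefore goes with the treatment. Samples were assigned to the cultivar by their titles and library names, because the genotype tags name the opposite cultivar and matched the title in 0 of 4 samples. "Matar Ageta" below therefore means the libraries titled so. The number of plants behind a library is not stated.

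When plants are suddenly warmed, heat shock transcription factors are activated and switch on genes for chaperones, the heat shock proteins, which keep other proteins folded. Transcripts of many such genes go from nearly absent to abundant within minutes to hours, while many growth-related transcripts decline. Developing pollen and the tapetum that feeds it are known as heat-sensitive tissues of the bud. None of these genes could be looked up here: the tables name genes by assembly identifiers, the files do not pair these with gene names, and 0 of the identifiers matched the 65673 genes of the pea reference table. For the same reason the label "flower" could not be checked against marker genes, and no sequence is shown. In whole buds, fewer cells of a type and less RNA per cell cannot be told apart.

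Each library is given as 2 numbered columns of estimated counts that no label explains, so the columns are treated as repeat measurements of 1 sample. With 1 sample per treatment there is no replicate check and no test, and no p-value is given. The heat columns held 21625288 and 11085736 estimated counts, and the control columns 15365483 and 15074446. Levels are given as CPM, counts scaled to library size with TMM factors, where 1 CPM stands for 20.8 and 11.5 counts in the heat columns and 15.5 and 14.9 in the control columns. Of 127533 assembled genes, 46141 had a mean of at least 1 CPM over the 4 columns and are called measured. A gene was called higher when the lower heat column was at least 2-fold above the higher control column, and lower in the mirror case, with 0.5 CPM added to each value. This gap is called the fold between the nearest columns.

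By this rule 1073 measured genes were higher after heat, which is 2.33% of those measured, and 1846 were lower, which is 4%. Without a minimum fold, the lower heat column exceeded the higher control column in 8908 genes (19.3%), and the higher heat column was under the lower control column in 9669 (21%). In the other genes the columns of the 2 treatments interleaved: the heat columns lay between the control columns in 7238, the control columns between the heat columns in 7597, and the columns alternated in 12729. The median log2 ratio of heat to control, averaged over columns, was 2.54 in the higher genes, -2.73 in the lower genes and -0.01 over all measured genes. A fold of at least 4 between the nearest columns was found in 512 higher and 729 lower genes, a fold of 8 in 146 and 197, and a fold of 16 in 39 and 51. Near the threshold, 126 higher and 183 lower genes had a log2 fold between the nearest columns of 1 to 1.1, and 154 and 229 genes fell just short of it, at 0.9 to 1.

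**Figure D1:**
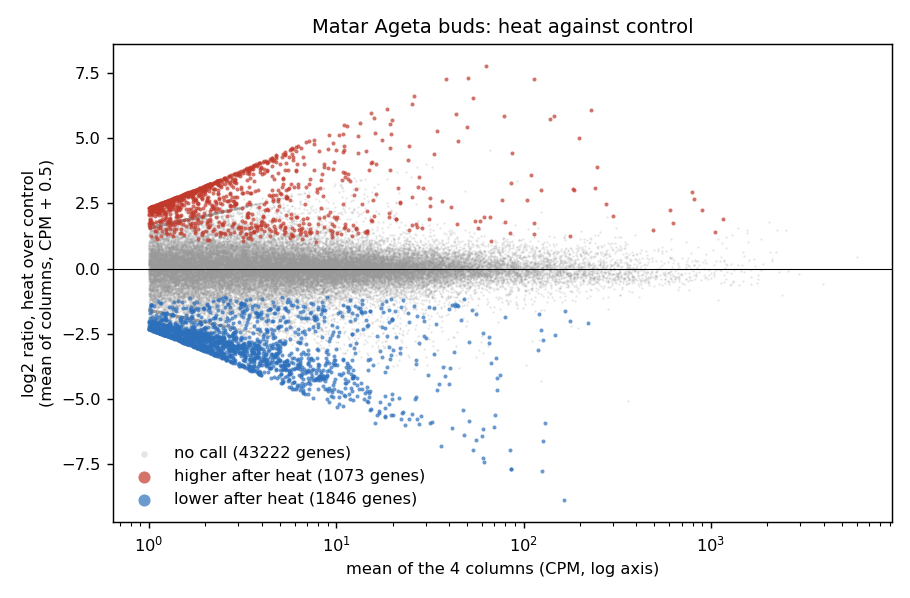
Log2 ratio of heat to control in Matar Ageta (vertical axis, mean of the 2 columns of each library, 0.5 CPM added) against the mean of the 4 columns in CPM (log axis), 1 point per measured gene. The 1073 higher genes (red) and 1846 lower genes (blue) crowd at the low end, where the added 0.5 CPM limits how large a ratio can be, and a few genes reach log2 ratios beyond 7.

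The balance between the 2 directions differed with expression level. Most calls were in weakly expressed genes, with means of 1 to 5 CPM, where 822 genes (3.41%) were higher and 1345 (5.57%) lower. At 5 to 20 CPM 181 genes (1.30%) were higher and 408 (2.94%) lower, and at 20 to 100 CPM 45 (0.705%) and 81 (1.27%). Above that level the order was the other way round. At 100 to 500 CPM 18 genes (1.18%) were higher and 12 (0.789%) lower, and at 500 CPM and over 7 genes (3.27%) were higher and none of 214 was lower. The median log2 ratio of higher genes was 2.51, 3.01, 2.62, 3.03 and 2.23 in the 5 classes from low to high, and that of lower genes was -2.63, -3.71, -3.77 and -2.64 in the 4 classes that held any.

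**Figure D2:**
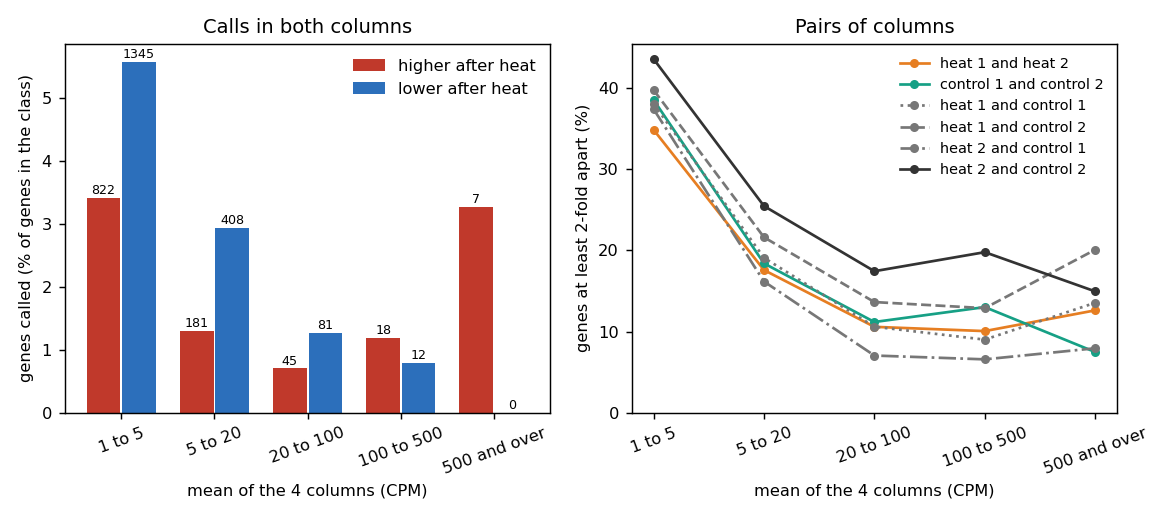
Left, genes called higher (red) or lower (blue) after heat as a percentage of the measured genes in each class of mean CPM, with the number of genes above each bar. Right, percentage of genes at least 2-fold apart for each pair of columns, with the 2 pairs from the same library in colour and the 4 heat-control pairs in grey or black. Lower calls outnumber higher ones up to 100 CPM, and the pair of heat column 2 and control column 2 differs most in the first 4 classes.

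The repeat columns of a library were themselves far apart. The 2 heat columns were at least 2-fold apart in 25.4% of measured genes and the 2 control columns in 27.7%. The 4 heat-control pairs gave 25.7% (heat 2 and control 1), 27.5% (heat 1 and control 1), 29.7% (heat 1 and control 2) and 33.6% (heat 2 and control 2). Only the pairs with control column 2 thus exceeded both repeats. At 1 to 5 CPM the repeats were 2-fold apart in 34.9% of genes for heat and 38.6% for control, against 10.6% and 11.2% at 20 to 100 CPM. At 20 to 100 CPM heat 2 and control 1 were closer than either pair of repeats, with 7.05% of genes 2-fold apart, and heat 2 and control 2 were farthest, with 17.4%. The correlation of log2 CPM across the measured genes, given as a description of columns that share 1 assembly, was 0.794 between the heat columns, 0.795 between the control columns and 0.800 between heat 2 and control 1, while heat 2 and control 2 gave 0.718. Genes with all 4 columns within 1.5-fold of each other numbered 10911 (23.6%), with the largest share, 46.1%, at 20 to 100 CPM.

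Among genes higher after heat, the largest fold between the nearest columns belonged to TRINITY_GG_68099_c0_g1. It had 63.5 and 90.8 CPM in the heat columns (1323 and 1045 counts) and was listed at 0 in both control columns. The fold was at least 315, with 3 counts in a control column as the limit that a count of 0 allows. Both heat columns were thus well above the control columns and within 2-fold of each other. In Arka Chaitra, whose tables were scaled separately, the same gene had 216 and 205 CPM after heat and was again listed at 0 in both control columns, a fold of at least 741. Those samples took no part in choosing it.

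Other strongly higher genes showed the same form. The gene ranked number 3 by this fold had 201 and 255 CPM after heat, against 0.585 and 1.55 CPM in the controls, a log2 fold between the nearest columns of 6.62. In Arka Chaitra it had 1759 and 1716 CPM after heat and 1.07 and 1.40 CPM in the controls. Gene number 10 in that order had 334 and 211 CPM after heat, against 3.61 and 5.54 CPM in the controls, and 806 and 806 CPM against 5.26 and 7.16 CPM in Arka Chaitra. Some of the top genes did not behave alike in the other cultivar. Gene number 2 had 62.0 and 190 CPM after heat and 0 in both controls of Matar Ageta, but 182 and 208 CPM after heat and 476 and 310 CPM in the controls of Arka Chaitra.

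Of the 165 higher genes with at least 10 CPM in both heat columns, the 20 with the largest fold between the nearest columns spanned log2 values of 4.68 to 7, and 12 of them were listed at 0 in both control columns. The heat columns were within 2-fold of each other in 10 of the 20, against 128 of all 165. All 20 were measured in Arka Chaitra, where 13 were called higher and 1 lower. Their median log2 ratio there was 6.49. Over all 165, 153 were measured in Arka Chaitra, with 50 (32.7%) called higher and 5 lower. The share of all genes measured in both cultivars that were called higher in Arka Chaitra was 3.97% (1421 of 35808), and 3.65% (1308) were called lower.

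The 7 higher genes with means of 500 CPM and over are described together. Their heat columns ranged between 529 and 2368 CPM and their control columns between 111 and 683 CPM, with log2 folds between the nearest columns of 1.04 to 2.44. The most abundant, TRINITY_GG_13404_c1_g1, had 2368 and 1337 CPM after heat, against 390 and 576 CPM in the controls, a log2 ratio of 1.91. Over all 214 genes at this level the median log2 difference of heat column 1 minus heat column 2 was 0.18. Heat column 1 was at least 2-fold above heat column 2 in 10.7% of the 214 and at least 2-fold below it in 1.87%. Among the 7 higher genes heat column 1 was above heat column 2 in 7 of 7. None was called in Arka Chaitra. There control column 1 was the highest of the 4 columns in 7 of 7, with 773 to 4959 CPM against at most 612 CPM in the other 3. How often all 214 genes show either order is not given here, so neither count can be read as particular to the 7. For TRINITY_GG_13404_c1_g1 the Arka Chaitra values were 419 and 327 CPM after heat and 778 and 177 CPM in the controls, so the treatments overlapped. Of the 7, 3 carry cluster numbers within 24 of each other, where the cluster number is the first number of the identifier. The cut at 500 CPM does not set the 7 apart. The higher genes ranked 8, 9 and 10 by heat level also had heat column 1 above heat column 2. In Arka Chaitra control column 1 was their highest column too, at 620, 153 and 763 CPM.

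Among genes lower after heat, the largest fold belonged to TRINITY_GG_14073_c0_g1, which was listed at 0 in both heat columns and had 99.0 and 562 CPM in the control columns. With 3 counts as the limit it was at least 380-fold lower. The treatments do not overlap, but the control columns lie more than 5-fold apart. In Arka Chaitra the gene was abundant in every column, with 1109 and 1064 CPM after heat and 1346 and 1315 CPM in the controls, a log2 ratio of -0.29. The most abundant lower gene by its control level, TRINITY_GG_49288_c0_g1, had 63.7 and 88.6 CPM after heat, against 533 and 198 CPM in the controls. Its log2 ratio was -2.10 and the fold between the nearest columns 2.23. In Arka Chaitra it was lower as well, with 87.1 and 82.5 CPM after heat and 230 and 304 CPM in the controls. Of the 206 lower genes with at least 10 CPM in both control columns, the 20 with the largest fold had control columns within 2-fold in 5. Over all 206 the control columns were within 2-fold in 136. In Arka Chaitra 14 of those 20 were measured, 0 were called in either direction, and the median log2 ratio was 0.08. Over all 206, 183 were measured there, with 21 (11.5%) called lower and 10 higher.

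**Figure D3:**
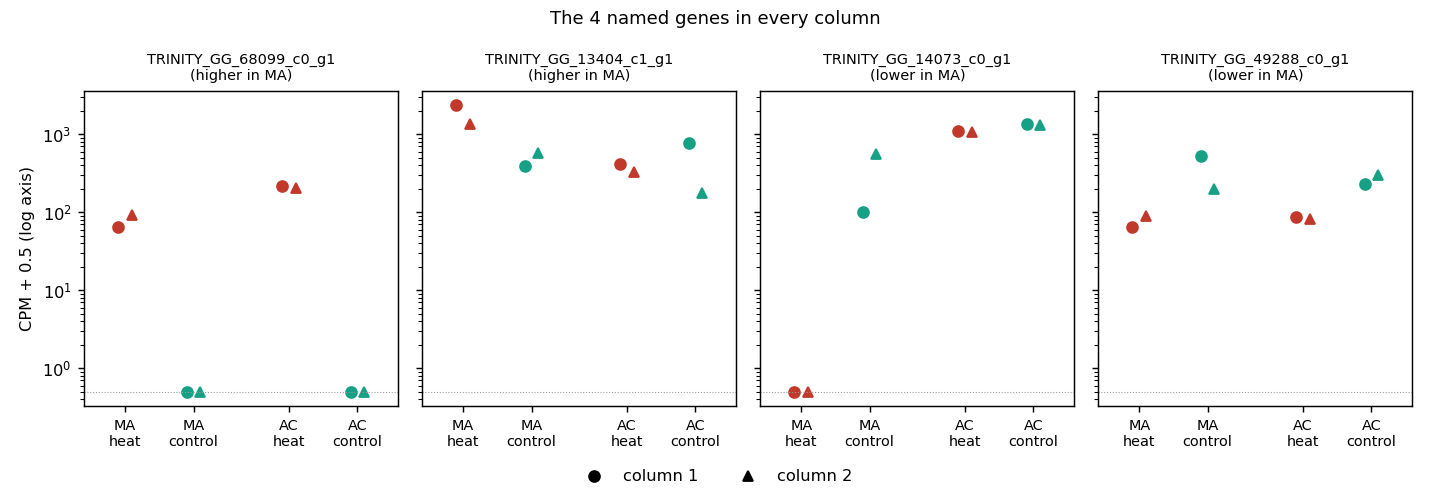
CPM plus 0.5 (log axis) of the 4 named genes in every column of Matar Ageta (MA) and Arka Chaitra (AC), heat in red and control in green, circles for column 1 and triangles for column 2; the dotted line is a count of 0. TRINITY_GG_68099_c0_g1 is at 0 in all 4 control columns, and TRINITY_GG_14073_c0_g1 is at 0 only in the heat columns of Matar Ageta.

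Wide gaps between the control columns were frequent over all lower genes, though not present in every one. Control column 2 was at least 2-fold above control column 1 in 979 of the 1846 lower genes (53.0%), and control column 1 was 2-fold above control column 2 in 119 (6.45%). Over all measured genes the shares were 13.8% and 13.9%. Among higher genes no column was favoured to that extent: heat column 1 was at least 2-fold above heat column 2 in 131 (12.2%) and below it in 168 (15.7%). Both libraries had their columns within 2-fold of each other in 649 higher genes (60.5%) and 616 lower genes (33.4%), against 58.7% of all measured genes. Genes with such close columns were thus about as often higher as lower.

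The 979 lower genes with high values in control column 2 also stood at high levels in Arka Chaitra. Their median was 0 in both heat columns, 1.54 CPM in control column 1 and 10.1 CPM in control column 2, and in Arka Chaitra 21.4 CPM after heat and 21.2 CPM in the control. All 4 Arka Chaitra columns were above all 4 Matar Ageta columns in 650 of them (66.4%). The same held for 43 of the 616 lower genes with close columns (6.98%) and for 6.36% of all measured genes. Levels across the cultivars are set side by side although the tables were scaled separately, and the part of this pattern in the lower calls was not tested. When control column 2 was left out, the rule with 3 columns called 2677 genes higher and 3132 lower, and leaving out any of the other 3 columns gave 3139 to 3608 higher and 3976 to 4588 lower.

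Some genes were listed in 1 treatment only. In 716 genes both control columns were at 0 and both heat columns at 1 CPM or more, and in 943 genes the reverse was found. Of these, 472 and 697 reached the mean of 1 CPM that makes a gene measured, and such genes had to be called. At 5 CPM or more the numbers were 65 and 78, and at 10 CPM or more 19 and 20. Of the 65 found after heat alone, 45 had heat columns within 2-fold of each other, and of the 78 found in the control alone 36 had close control columns. Over all measured genes the heat columns were 2-fold apart in 25.4% and the control columns in 27.7%. All 4 Arka Chaitra columns were at 0 for 13 of the 65 and 15 of the 78, and at 1 CPM or more for 12 of the 65 and 36 of the 78. Over all measured genes 8.01% were at 0 in all 4 Arka Chaitra columns. The share of all genes at 1 CPM or more in all 4 is not given here. The limit that a count of 0 allows is 0.144 and 0.261 CPM in the heat columns and 0.193 and 0.201 CPM in the control columns, for counting error only. An assembly can hold 1 gene as several entries that share reads, so an entry at 0 does not show a silent gene.

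The called genes held a small part of the RNA pool. The 1073 higher genes took 2.88% and 2.13% of the counts in the heat columns, against 0.424% and 0.439% in the control columns. The 1846 lower genes took 0.189% and 0.190% in the heat columns, against 1.39% and 3% in the control columns, so control column 2 held more than control column 1. Much of the higher sum came from few genes: the 25 higher genes at 100 CPM and over took 1.93% and 1.19% in the heat columns and 0.296% and 0.334% in the control columns. Among the lower genes the 489 at 5 to 100 CPM took the largest part, with 0.121% and 0.125% after heat and 0.772% and 1.83% in the control.

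Lower genes were unevenly spread over the cluster numbers of the identifiers, and higher genes more evenly. The numbers were divided into 70 windows of 1000. The share of measured genes called lower was between 0.968% and 11.2% per window, with a median of 2.95%, and the share called higher was between 0.904% and 4.26%, with a median of 2.46%. In 25 windows at least 4% of genes were lower. These windows were picked for that share, fall into 5 unbroken runs, and hold 36.3% of the measured genes, 61.9% of the lower genes and 31.8% of the higher genes. In the other windows 732 genes (2.49%) were higher and 703 (2.39%) lower.

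The gap between the control columns followed the same windows. The mean log2 difference of control column 2 minus control column 1 was between -0.01 and 0.46 in the 25 windows, with a median of 0.27, and between -0.30 and 0.14 in the others, with a median of -0.15. Across the 70 windows it correlated with the share of lower genes at r = 0.913 (Spearman's rho 0.807), described without a p because both measures share the control columns and neighbouring windows are alike. The difference of heat column 2 minus heat column 1 correlated with the share of lower genes at r = 0.737, and the heat columns enter the calls too. The share of higher genes gave r = -0.271 with the control difference and -0.339 with the heat difference. Control column 2 was at least 2-fold above control column 1 in 65.0% of the lower genes inside the 25 windows and in 33.6% of those outside. The 2 kinds of window also differed in Arka Chaitra. Of the measured genes 93.5% inside the 25 windows and 68.6% outside them were measured there too, and the median Arka Chaitra log2 ratio of these was 0.11 inside and -0.11 outside. What part these differences have in the lower calls was not tested.

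**Figure D4:**
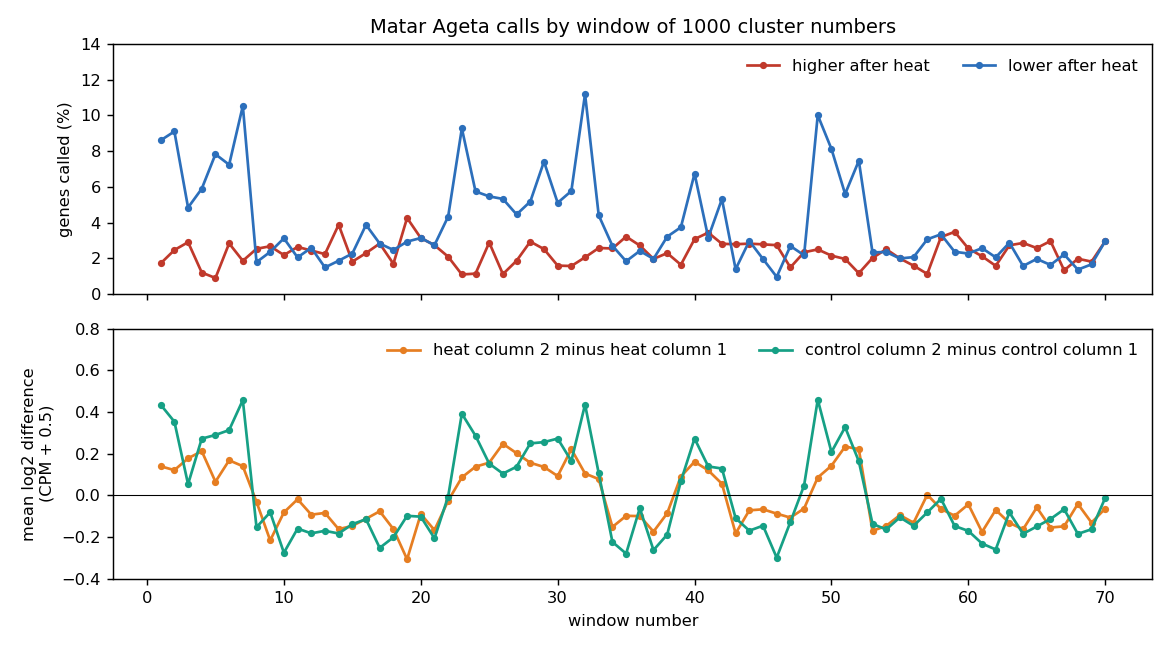
Top, percentage of measured genes called higher (red) or lower (blue) after heat in each of 70 windows of 1000 cluster numbers. Bottom, mean log2 difference between the 2 columns of a library in the same windows, heat in orange and control in green. The lower calls reach 11.2% of a window and follow the control column difference, with r = 0.913.

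Several entries can share a cluster number, and calls for such entries often did not extend to the cluster. A cluster with another measured entry held 398 of the higher and 497 of the lower entries. In 12 clusters 1 entry was higher and another lower. When all entries of a cluster were summed, 844 of 41402 cluster sums (2.04%) were higher and 1516 (3.66%) lower. Of 378 clusters with a higher entry and at least 2 measured entries, 65 (17.2%) were higher as a sum, and of 434 such clusters with a lower entry 129 (29.7%) were lower. Entries identical to another in all 8 columns of the study made up 1807 of the measured entries, with 70 among the higher and 64 among the lower, so each count of genes includes some repeats. The lower genes ranked 3 and 4 by fold had the same values, 0 in both heat columns and 33.9 and 309 CPM in the controls, and were at 0 in Arka Chaitra.

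The Arka Chaitra samples give values that the Matar Ageta calls did not use. Of the 1073 higher genes 611 (56.9%) were measured there, against 77.6% of all measured genes. By the same rule 123 of the 611 (20.1%) were higher and 28 (4.58%) lower after heat in Arka Chaitra. The median log2 ratio of the 611 was 0.55. A gene at 0 in the Arka Chaitra controls counts as measured there only if its heat columns are high enough. This filter can raise the shared share, so the 20.1% does not stand for all 1073. Of the 1464 lower genes measured there, 68 (4.64%) were lower and 107 (7.31%) higher, with a median of 0.01. Over all 35808 genes measured in both, 3.97% were higher and 3.65% lower in Arka Chaitra, and the median was -0.01. The 123 shared higher genes are 8.66% of those called higher in Arka Chaitra, and the 68 shared lower genes are 5.20% of those called lower. With 1 Matar Ageta column left out, which loosens the rule, the shared share of higher genes was 11% without heat column 1, 13.2% without heat column 2, 9.77% without control column 1 and 13.2% without control column 2. That of lower genes was 4.38%, 4.64%, 3.94% and 8.42% in the same order.

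Shared calls were more frequent at 20 to 500 CPM than at lower levels, while none of the 7 higher genes at 500 CPM and over was shared. Of the higher genes measured in Arka Chaitra, 14% were higher there at 1 to 5 CPM and 23.9% at 5 to 20 CPM. The share was 50% (21 of 42) at 20 to 100 CPM and 55.6% (10 of 18) at 100 to 500 CPM. At 1 to 5 CPM only 385 of the 822 higher genes were measured there, against 42 of 45 at 20 to 100 CPM. The shares among all genes in these classes were 4.80%, 3.46%, 2.91% and 3.60%. Median log2 ratios in Arka Chaitra for the higher genes of these classes were 0.38, 0.75, 1.89 and 2.20. Of the lower genes 3.88%, 3.50%, 13.2% (10 of 76) and 50% (6 of 12) were lower there, against 3.78%, 3.26%, 3.91% and 4.08% of all genes. Inside the 25 windows rich in lower genes 2.13% of the lower genes were lower in Arka Chaitra, against 1.80% of all genes there, and outside them 11.7% were, against 5.09%. No test of the difference between the cultivars was possible with 1 sample per group.

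**Figure D5:**
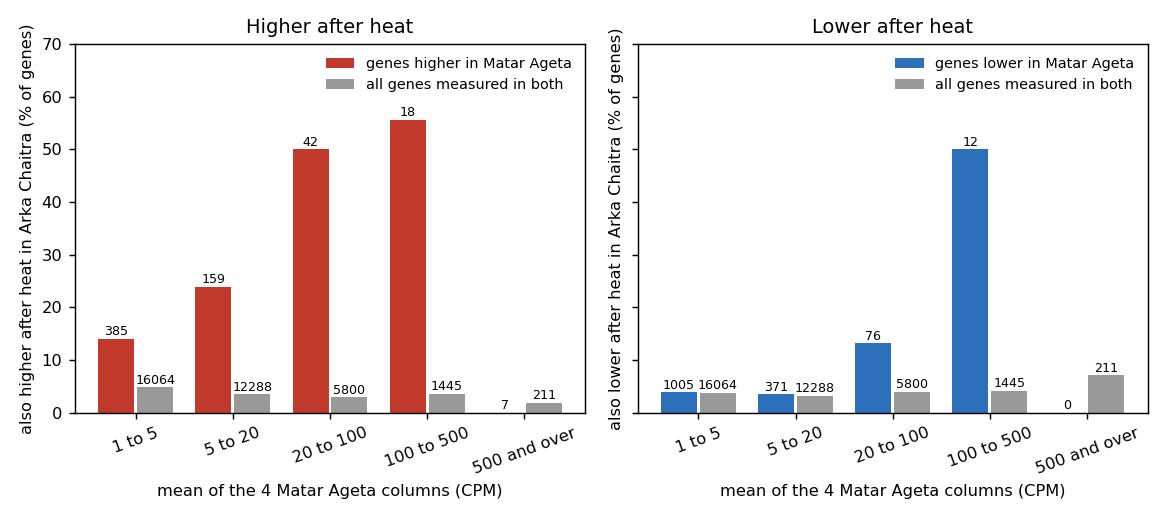
Percentage of genes called in the same direction after heat in Arka Chaitra, among the genes called in Matar Ageta (coloured) and among all genes measured in both cultivars (grey), by class of mean CPM in Matar Ageta, higher on the left and lower on the right. Numbers above the bars are the genes in each class that were measured in both cultivars. Of such higher genes, 50% at 20 to 100 CPM and 55.6% at 100 to 500 CPM were also higher in Arka Chaitra.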

How the data were processed

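RNA from unopened flower buds was sequenced after a SMARTER mRNA library preparation, per the labels' protocols. The submitters' processing notes name FastQC, STAR, Bowtie2, RSEM and DESeq2 without version or role. The genome build is not given in the sources used here; per the file headers, identifiers have the form of genome-guided Trinity genes. The authors deposited expected counts, estimated per assembled gene, which are not whole numbers, and a signal that equals the deposited count times 1 constant per column, marked as TMM.

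Each cultivar's 4 columns were scaled with TMM in edgeR 4.0.16 (R 4.3.3), without rounding; DESeq2 1.42.0 size factors, computed on rounded counts, were an alternative scaling. Ratios are log2(CPM + 0.5), which understates changes of weakly expressed genes. No test was possible with 1 sample per group. At most 2 identifiers per direction are printed: the called gene with the largest fold between the nearest columns, with 10 CPM or more in both columns of the higher treatment, and the called gene with the highest level. Genes given by rank, the 7 abundant genes and the 25 windows were chosen after their values were seen. The comparison and its rules were chosen with earlier results of these data known.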

Additional observations from a re-analysis of the deposited data

Results flagged for a closer look

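Both cultivars were called in opposite directions for some genes, with every heat column on one side of every control column in each cultivar. The 2-fold rule sets a minimum size for the ratios below in each cultivar. There were 28 genes higher after heat in Matar Ageta and lower in Arka Chaitra. They are 4.58% of the 611 higher genes measured in Arka Chaitra, against 3.65% lower there over all genes measured in both. In the 28 genes the median log2 ratios were 2.64 and -2.92. Their median level was 3.18 CPM, and 9 of them had columns within 2-fold of each other in all 4 libraries. The reverse, lower after heat in Matar Ageta and higher in Arka Chaitra, was found for 107 genes. They are 7.31% of the 1464 lower genes measured in Arka Chaitra, against 3.97% higher there over all genes measured in both. In the 107 genes the median log2 ratios were -2.90 and 2.63. Of these, 24 had close columns in all 4 libraries, 65 (60.7%) had control column 2 at least 2-fold above control column 1 in Matar Ageta, and 83 (77.6%) lay in the 25 windows rich in lower genes. The shares over all 1464 lower genes measured in Arka Chaitra were close to these, at 58.3% and 73.8%. Inside the 25 windows 7.68% of the lower genes were higher in Arka Chaitra, against 5.33% of all genes measured in both. Outside them the shares were 6.27% and 2.91%, so the pooled 3.97% is a low base for genes inside the windows. The difference between the cultivars was not tested for any gene.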

How the results depend on the processing

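The counts of higher and lower genes (1073 and 1846) stayed within 1.5 times under DESeq2 size factors, column totals, the deposited signal, a pseudocount of 0.1 CPM and sums by cluster number. They were 547 and 773 with a pseudocount of 2 CPM, 2183 and 2770 with no filter, 251 and 501 with a mean of at least 5 CPM, 2098 and 3027 at a fold of 1.5, 512 and 729 at a fold of 4, and 4782 and 5975 with the columns of a library summed. Each of these changes loosens or tightens the rule itself. Leaving out 1 column, which loosens it too, gave 2677 to 3608 higher and 3132 to 4588 lower genes, and 193 to 229 genes higher and 139 to 148 lower in both cultivars. Chosen after seeing the data, genes with columns within 2-fold numbered 649 higher and 616 lower, and windows under 4% lower left 732 and 703. Lower genes outnumbered higher ones in every alternative but the one with close columns and the one with those windows. Genes 2-fold apart between heat and between control columns were 7753 and 8417 with a pseudocount of 2 CPM, 27343 and 29413 with no filter, and 3298 and 3484 at 5 CPM. Genes listed at 0 in 1 treatment fell to 65 and 78 at 5 CPM. The 4 named genes were picked from the calls, so leaving out a column could not reverse them, and their unchanged direction is no check. Their log2 folds between the nearest columns did vary across the alternatives. The fold was 5.03 to 9.31 for TRINITY_GG_68099_c0_g1 and 1.20 to 2.04 for TRINITY_GG_13404_c1_g1. It was 5.66 to 10.1 for TRINITY_GG_14073_c0_g1 and 1.09 to 2.58 for TRINITY_GG_49288_c0_g1. No paired analysis was possible because the 2 Matar Ageta samples carry different replicate numbers and each group is 1 sample. Most calls lie under 5 CPM, where 1 CPM is 11.5 to 20.8 counts.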
